A study of Homo sapiens with 6 samples.

Results

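Nascent transcription of 50 genes that build the centromere and kinetochore or hold sister chromatids together was examined in the small cell lung cancer cell line SBC-3, which is of human origin. The genes were chosen by symbol from the known parts of these structures, among 25827 annotated features, and all 50 had at least 10 normalized reads in each of the 6 libraries. PRO-seq, in which polymerases already engaged on a gene add a few labelled nucleotides to their RNA, which is then sequenced, was applied to wild-type (labelled WT) SBC-3 cells harvested 72 h after reverse transfection. The siCtrl group received a control siRNA, and the siSFPQ-2 and siSFPQ-3 groups each received a different siRNA against SFPQ, an RNA-binding protein of nuclear paraspeckles, all at 10 nM and with n = 2 libraries per group. The series asks how SFPQ acts on the transcription of primary microRNA transcripts, and the comparisons here ask how the 50 genes differ between these groups.

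The centromere is marked by nucleosomes that hold the histone H3 variant CENP-A. On them sits the inner kinetochore, the constitutive centromere-associated network (CCAN), which carries the KMN network that grips spindle microtubules and gathers the spindle checkpoint proteins. Cohesin rings hold the sister chromatids together until anaphase. Many kinetochore and checkpoint genes are known to be transcribed mainly in late cell cycle phases, through promoter elements such as the cell cycle homology region (CHR), the CCAAT box and E2F sites, whereas the core cohesin subunits also organize chromatin in interphase and are transcribed throughout the cycle.

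The promoters of 4 members are shown because they set genes that fell beside one that was not called and beside a cohesin gene that also fell. INCENP and ZWINT had the smallest p-values, in the comparison of siSFPQ with siCtrl, of the members with a CHR within 100 bases before the start, CENPA also holds such a CHR but was not called, and SMC1A has the largest fold change of the cohesin members with a promoter in the table. Each sequence is the RefSeq window of GRCh38.p14, the same build as hg38, from 250 bases before to 50 bases after the first start listed for the gene, written 5′ to 3′ on the gene's strand. The windows are chr11:62123761-62124060, plus strand (INCENP), chr10:56361210-56361509, minus strand (ZWINT), chr2:26785806-26786105, plus strand (CENPA) and chrX:53422679-53422978, minus strand (SMC1A). Capitals mark matches, on either strand, to the CHR (TTTGAA or TTCGAA), the CCAAT box (CCAAT) and an E2F-type site (TTTNNCGC).
INCENP: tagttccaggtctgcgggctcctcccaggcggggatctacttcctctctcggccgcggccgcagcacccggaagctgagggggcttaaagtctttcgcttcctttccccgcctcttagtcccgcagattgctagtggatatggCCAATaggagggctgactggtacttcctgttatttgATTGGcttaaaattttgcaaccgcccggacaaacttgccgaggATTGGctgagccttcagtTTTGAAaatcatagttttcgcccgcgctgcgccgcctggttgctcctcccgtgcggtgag
ZWINT: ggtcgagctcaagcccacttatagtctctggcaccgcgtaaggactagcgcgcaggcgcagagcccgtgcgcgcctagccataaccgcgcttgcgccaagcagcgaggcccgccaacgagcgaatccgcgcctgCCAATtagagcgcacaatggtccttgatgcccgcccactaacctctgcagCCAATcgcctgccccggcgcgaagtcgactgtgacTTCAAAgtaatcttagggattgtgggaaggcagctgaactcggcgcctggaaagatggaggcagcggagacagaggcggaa
CENPA: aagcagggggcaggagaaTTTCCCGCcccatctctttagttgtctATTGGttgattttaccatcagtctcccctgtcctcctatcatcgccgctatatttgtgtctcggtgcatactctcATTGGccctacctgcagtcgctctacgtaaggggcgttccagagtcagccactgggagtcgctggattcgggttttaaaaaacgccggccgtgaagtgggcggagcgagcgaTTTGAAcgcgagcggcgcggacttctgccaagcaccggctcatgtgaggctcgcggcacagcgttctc
SMC1A: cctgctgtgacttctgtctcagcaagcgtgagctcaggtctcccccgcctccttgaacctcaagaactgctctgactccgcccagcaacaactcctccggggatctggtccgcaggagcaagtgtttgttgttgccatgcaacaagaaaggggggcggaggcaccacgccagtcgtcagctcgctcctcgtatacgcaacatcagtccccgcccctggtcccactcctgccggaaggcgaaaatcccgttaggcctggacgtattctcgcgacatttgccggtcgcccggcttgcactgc

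INCENP held 1 CHR and 3 CCAAT matches, ZWINT 1 CHR and 2 CCAAT matches, and CENPA 1 CHR, 2 CCAAT and 1 E2F-type match. SMC1A held 0 matches to the motifs. A CHR began at -10 in INCENP, -31 in ZWINT and -18 in CENPA, counted from the start. Of the members, 41 had a promoter in the table. A CHR lay in 23 of these 41 windows (56.1%), against 16.6% of all 27303 promoters of the table and 11.3% of the tested features with a promoter. Within 100 bases before the start, 6 of 41 members held one (14.6%), against 4.94% of all promoters, and these were INCENP, ZWINT, CDCA8, BUB1B, CENPA and CENPC. The CCAAT box lay in 26 of 41 (63.4%), against 35.7% of all promoters and 36.4% of the tested features with a promoter. The E2F-type site lay in 9 of 41 (22%), against 6.9% and 10.2%. Among the 86 matches of members, 1 pair of different motifs overlapped. Split by the comparison described next, 17 of 28 members called lower and 6 of 13 others held a CHR, 16 of 28 and 10 of 13 a CCAAT box, and 4 of 28 and 5 of 13 an E2F-type site. Of all tested features called lower, 13.9% held a CHR, 40% a CCAAT box and 12.1% an E2F-type site. These matches describe letters in a window and are not shown to be bound sites.

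The libraries held between 12072813 and 18475158 reads. Nascent SFPQ reads themselves lay between 1825 and 2466 with the siRNAs and at 2294 and 2435 with siCtrl (limma, log2 fold change -0.22, adjusted p = 0.137), and since siRNAs cut mature RNA, this readout does not check the knockdown. Of 8 neuroendocrine markers of small cell lung cancer, SYP, DLL3 and NEUROD1 passed the filter and CHGA stood at 0 to 5.54 normalized reads. With both siRNA groups averaged, DLL3 fell (log2 fold change -0.83), while SYP (0.14) and NEUROD1 (-0.94) were not called. The siRNAs differed for SYP, at 283 and 226 with siCtrl, 338 and 412 after siSFPQ-2, and 187 and 232 after siSFPQ-3. NEUROD1 stood at 27.1 and 31.0 with siCtrl, 25.8 and 11.1 after siSFPQ-2, and 12.9 and 12.2 after siSFPQ-3. YAP1, a marker of a non-neuroendocrine state, stood at 3312 and 2856 with siCtrl and rose to 4634 to 5431 with siSFPQ (0.73). Of the other markers of variant states, VIM rose (0.56), MYC (-0.57) and POU2F3 (-0.54) fell, and REST was not called (0.01). Marker lists of other cell types also moved with the siRNAs. The summed level of epithelial markers (5 of 7 tested) was 1117 and 1216 with siCtrl and 3102 to 4156 with siSFPQ, with KRT8, KRT18 and ELF3 higher, CLDN7 lower (log2 fold change -0.80) and EPCAM not called (0.10). Fibroblast markers (4 of 8 tested) summed to 1319 and 1269.5 with siCtrl and 2723 to 3890.0 with siSFPQ. Endothelial markers (1 of 5 tested) summed to 38.3 and 48.7 against 88.2 to 145, and immune markers (3 of 6 tested) to 752 and 752 against 504 to 783. The immune sum is mostly CD68, which fell (-0.49), while ITGAX and CD79A rose from low levels. The part of these marker changes in the results below was not tested. Whether replicate libraries stem from separate cultures is not stated, so all p-values rest on the spread among these libraries, which may be technical.

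Most of the 50 genes were transcribed less after siSFPQ. With both siRNA groups averaged and set against siCtrl, 36 members fell and 1, CENPW, rose (limma on log2 of normalized reads + 1, Benjamini-Hochberg adjusted p under 0.05 over 21773 tested features). Of all tested features, 23.2% fell and 24.8% rose in this comparison. The counts by role below are to be read beside these shares. The median log2 fold change was -0.78 over the members and -0.02 over all tested features. In 37 members all 4 siSFPQ libraries lay below both siCtrl libraries, which held for 31% of tested features. In 2 members, CENPW and PMF1, they lay above both (30.3% of tested features). These shares also belong beside the single genes described below as not overlapping siCtrl. In bulk libraries, fewer cells that transcribe a gene and less transcription per cell cannot be told apart.

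The falls differed between libraries. Set against the siCtrl mean, the median member stood at 59.0% and 45.8% in siSFPQ-2 replicates 1 and 2, and at 76.8% and 66.1% in siSFPQ-3 replicates 1 and 2. The lowest of the 6 libraries was siSFPQ-2 replicate 2 for 39 of 50 members, which held for 17.8% of tested features. Leaving that library out changed the calls of few members. Calls were lost when either siCtrl library was left out, most often without siCtrl replicate 1. Such a fit has 1 siCtrl library, assumed to vary like the other groups. The share of all tested features called in it was not drawn up, so a loss particular to the members cannot be told from a general one. The same limits hold for the fits below that leave out a single library. Normalized reads came already scaled by the authors, and the median of all tested features moved by at most -0.04 on the log2 scale when libraries were rescaled to the same total or by TMM.

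**Figure D1:**
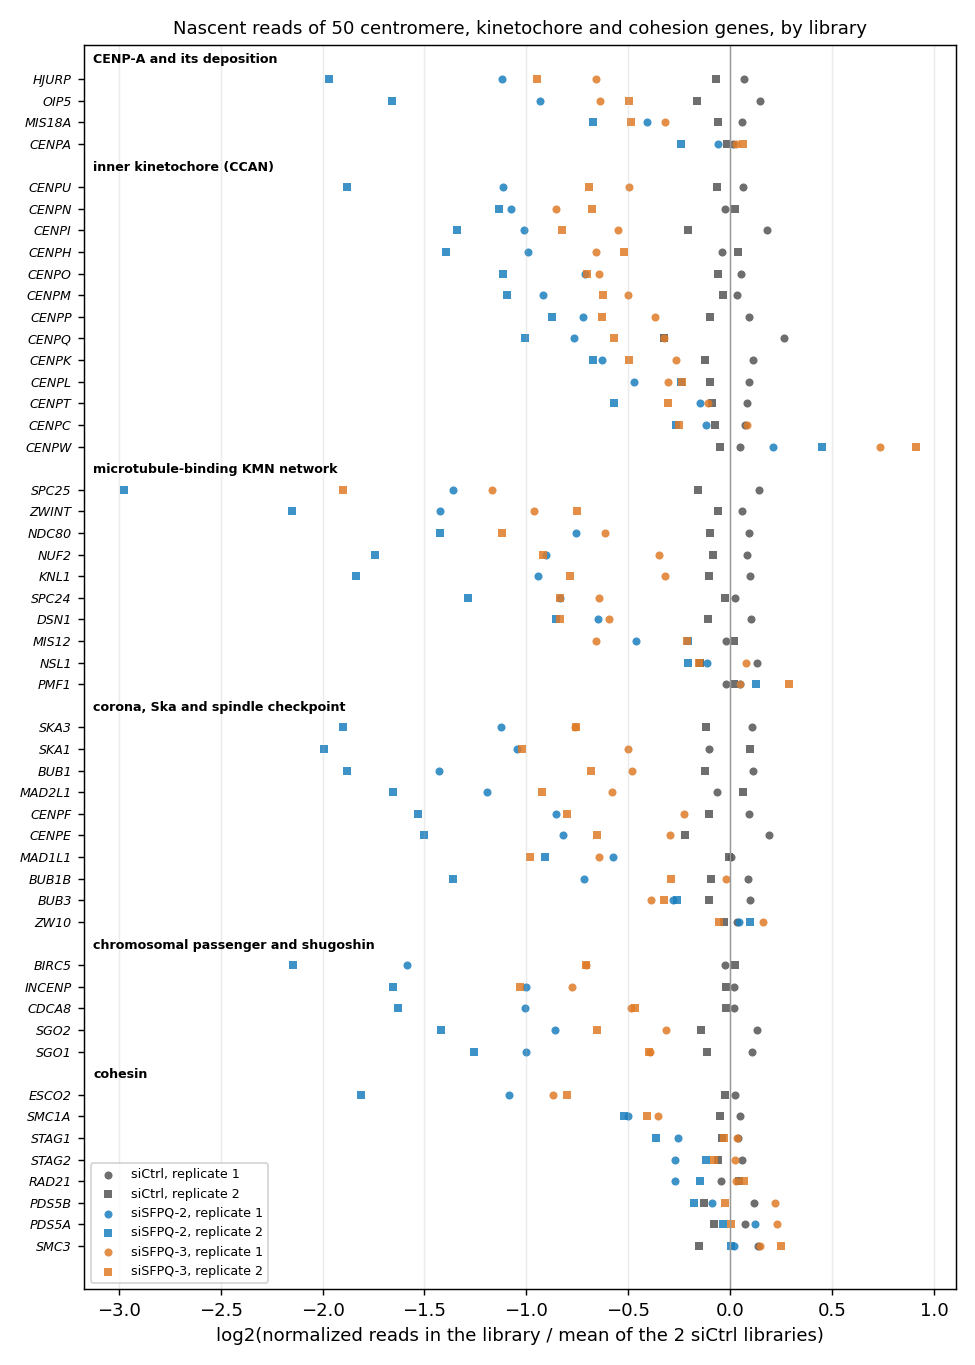
Normalized reads of each of the 50 members in the 6 libraries, as log2 of the ratio to the mean of the 2 siCtrl libraries, in groups by role; circles are replicate 1 and squares replicate 2. Most kinetochore, checkpoint and passenger genes lie left of 0 in all 4 siSFPQ libraries, with siSFPQ-2 replicate 2 lowest for 39 of 50 members, while CENPA, PMF1, ZW10 and most cohesin genes stay near 0 and CENPW lies to the right.

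Genes that deposit CENP-A fell while CENPA itself was not called. Of 4 members, 3 fell, with a median of -0.69. HJURP encodes the chaperone that brings new CENP-A to centromeres, and its normalized reads were 612 and 557 with siCtrl, 269 and 149 after siSFPQ-2, and 371 and 303 after siSFPQ-3. The groups did not overlap (log2 fold change -1.17, SE 0.20, adjusted p = 0.000833). OIP5, a subunit of the Mis18 complex that licenses deposition, stood at 433 and 350.1 with siCtrl, 205 and 124 after siSFPQ-2, and 252 and 277 after siSFPQ-3. Both siSFPQ-2 values lay below both siSFPQ-3 values, and all 4 below siCtrl (log2 fold change -0.92, SE 0.19, adjusted p = 0.00245), although reads of the overlapping antisense gene OIP5-AS1 cannot be told apart where strand was not used in counting. MIS18A, the partner subunit of OIP5, fell as well (log2 fold change -0.47, adjusted p = 0.0229).

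CENPA, the histone variant itself, was described after its values were seen, as the member of this group that was not called. It stood at 493 and 483 with siCtrl, 468 and 413 after siSFPQ-2, and 498 and 509 after siSFPQ-3. The siSFPQ values lay on both sides of the siCtrl values, and the log2 fold change was -0.05 with a 95% interval of -0.28 to 0.17 (limma, adjusted p = 0.693). Without siCtrl replicate 1, only HJURP of this group was still called, with MIS18A at an adjusted p of 0.169 and OIP5 at 0.056. MIS18A also lost its call without siCtrl replicate 2 (0.0879), without siSFPQ-2 replicate 2 (0.0591) and in DESeq2 (0.0553).

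Of the 13 inner kinetochore (CCAN) genes, 10 fell, 1 rose and 2 were not called, with a median of -0.65. CENPN, whose protein reads CENP-A nucleosomes, had the smallest adjusted p of all 50 members. Its values were 873 and 902 with siCtrl, 421 and 404 after siSFPQ-2, and 492 and 554 after siSFPQ-3. The siSFPQ-2 values lay a little below the siSFPQ-3 values and all 4 far below siCtrl, at a fitted 52.3% of it (log2 fold change -0.93, SE 0.10, adjusted p = 3.91e-05). CENPM, a subunit that resembles a small GTPase, stood at 414 and 394 with siCtrl, 214 and 189 after siSFPQ-2, and 286 and 262 after siSFPQ-3. Both siRNAs lowered it without overlap between any of the 3 groups (log2 fold change -0.78, SE 0.12, adjusted p = 0.000401). Antisense CENPN-AS1 overlaps CENPN and SMIM45 overlaps CENPM, and whether the counting used strand is not stated in the sources used here.

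The other CCAN genes that fell were CENPU (-1.04), CENPI (-0.91), CENPH (-0.89), CENPO (-0.79), CENPP (-0.65), CENPQ (-0.63), CENPK (-0.51) and CENPL (-0.31), with the log2 fold change in parentheses. They cover the CENP-H/I/K arm, the CENP-O/P/Q/U complex and CENPL, the partner of CENPN. CENPL was the least firm of them, with an adjusted p of 0.0428 that passed 0.05 without siCtrl replicate 1 (0.327), siCtrl replicate 2 (0.0804), siSFPQ-2 replicate 1 (0.101) or siSFPQ-3 replicate 1 (0.0638), with TMM scaling (0.0503), in DESeq2 (0.0839) and with the siRNAs pooled as 1 group (0.0511). CENPK and CENPQ lost their calls without siCtrl replicate 1 (adjusted p 0.0975 and 0.243). CENPC, which ties CENP-A to the outer kinetochore, and CENPT, the histone-fold partner of CENPW, were not called, at -0.14 (95% interval -0.40 to 0.13) and -0.28 (-0.63 to 0.07). Neighbouring genes overlap CENPL, CENPO, CENPP, CENPT and CENPU, and reads of such pairs may be shared.

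CENPW was the single member that rose, and its values are given for that reason. It stood at 82.9 and 77.5 with siCtrl, 92.7 and 109.6 after siSFPQ-2, and 133 and 151 after siSFPQ-3. Every siSFPQ library lay above both siCtrl libraries, higher with siSFPQ-3 than with siSFPQ-2 (log2 fold change 0.57, SE 0.17, adjusted p = 0.0159). The call ended without siCtrl replicate 1 (adjusted p = 0.0704) and without siCtrl replicate 2 (0.114). The RefSeq span of CENPW, chr6:126340115-126483320, is 143 kb long.

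Of 10 genes of the KMN network, the microtubule-binding layer, 7 fell, with a median of -0.93. ZWINT encodes a partner of the scaffold KNL1, and its values were 209.6 and 193 with siCtrl, 74.9 and 45.4 after siSFPQ-2, and 103 and 119.5 after siSFPQ-3. The siRNA groups lay apart from siCtrl and from each other (log2 fold change -1.31, SE 0.21, adjusted p = 0.000535). SPC24, a subunit that anchors the NDC80 complex, stood at 409.6 and 397 with siCtrl, 226 and 165 after siSFPQ-2, and 258 and 226 after siSFPQ-3. Its siSFPQ-2 and siSFPQ-3 values interleaved, all below siCtrl (log2 fold change -0.90, SE 0.15, adjusted p = 0.000623). SPC25, the partner of SPC24, had the largest fall of the 50 members and was singled out for that after its values were seen. Its values were 192 and 156 with siCtrl, 67.7 and 22.1 after siSFPQ-2, and 77.4 and 46.6 after siSFPQ-3. The fall was large but imprecise (log2 fold change -1.82, SE 0.37, adjusted p = 0.00249), as siSFPQ-2 replicate 2 lay far below replicate 1, at the lowest value of any member.

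NDC80 (-0.97) and NUF2 (-0.97), which form the arm that touches the microtubule, KNL1 (-0.96), the landing platform of the BUB proteins, and DSN1 (-0.72), a subunit of the Mis12 complex, also fell. NUF2 and KNL1 lost their calls without siCtrl replicate 1 (adjusted p 0.0697 and 0.0755). The other subunits of the Mis12 complex were not called. MIS12 stood at 328 and 337 with siCtrl, 242 and 288 after siSFPQ-2, and 211 and 287 after siSFPQ-3, all 4 siSFPQ values below siCtrl but with an adjusted p of 0.0518 (-0.38). It passed the threshold without siSFPQ-2 replicate 2 (0.0382), without siSFPQ-3 replicate 2 (0.0094) and with libraries scaled to the same total (0.0347). NSL1 (-0.09, 95% interval -0.34 to 0.16) and PMF1 (0.13, -0.09 to 0.35) differed little from siCtrl. MIS12 overlaps DERL2, PMF1 overlaps the read-through gene PMF1-BGLAP, and SPC25 overlaps NOSTRIN.

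Among the corona, Ska and spindle checkpoint genes, 9 of 10 fell, with a median of -0.83. BUB1 encodes a checkpoint kinase that also marks the inner centromere, and its values were 600.1 and 508 with siCtrl, 206 and 151 after siSFPQ-2, and 397 and 345 after siSFPQ-3. The 3 groups were separate, with siSFPQ-2 lowest (log2 fold change -1.11, SE 0.15, adjusted p = 0.000169). MAD2L1, which encodes the MAD2 protein that inhibits the anaphase-promoting complex, stood at 443 and 483 with siCtrl, 202 and 147 after siSFPQ-2, and 309.8 and 244 after siSFPQ-3. Again siCtrl, siSFPQ-3 and siSFPQ-2 were ordered from high to low with no overlap (log2 fold change -1.08, SE 0.16, adjusted p = 0.000288).

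SKA3 (-1.13) and SKA1 (-1.13), which help kinetochores follow shortening microtubules, also fell. CENPF (-0.85), CENPE (-0.80), a kinesin motor, and BUB1B (-0.59), which encodes the checkpoint protein BUBR1, did so too. MAD1L1, the MAD2 receptor and at 417 kb the longest member, fell by 0.78 (adjusted p = 0.000651), from 4503 and 4461 with siCtrl to 3009 and 2388 after siSFPQ-2 and 2869 and 2272 after siSFPQ-3. Its siSFPQ-2 values interleaved with its siSFPQ-3 values. BUB3 fell by 0.31 (adjusted p = 0.0327), and ZW10, part of the complex that brings dynein to kinetochores, was not called (0.06, 95% interval -0.17 to 0.29).

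Without siCtrl replicate 1, 5 of these 10 genes fell rather than 9. CENPE (adjusted p = 0.114), CENPF (0.0677), BUB1B (0.143) and BUB3 (0.295) then lost their calls. SKA1 lost its call without siCtrl replicate 2 (0.0696), as did BUB1B (0.0624) and BUB3 (0.0621). BUB3 also lost it without siSFPQ-2 replicate 1 (0.0563), siSFPQ-2 replicate 2 (0.0551) or siSFPQ-3 replicate 1 (0.0522) and in DESeq2 (0.0754). BUB1B was the called member whose siSFPQ values overlapped siCtrl, with siSFPQ-3 replicate 1 at 541 against 514 in siCtrl replicate 2, and its adjusted p was 0.117 when both siRNAs were pooled as 1 group, a setting added after seeing the data.

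All 5 genes of the chromosomal passenger complex and the shugoshins fell, with a median of -0.89. INCENP, the scaffold of the Aurora B kinase complex at centromeres, stood at 702 and 685 with siCtrl, 346 and 220.4 after siSFPQ-2, and 404 and 339 after siSFPQ-3. No siSFPQ library reached the siCtrl level (log2 fold change -1.11, SE 0.16, adjusted p = 0.000336). BIRC5, which encodes the passenger subunit survivin, stood at 116 and 119.6 with siCtrl, 39.2 and 26.6 after siSFPQ-2, and 72.1 and 71.9 after siSFPQ-3. The siSFPQ-3 replicates nearly coincided, and siSFPQ-2 lay lower still (log2 fold change -1.27, SE 0.21, adjusted p = 0.000713). CDCA8, which encodes the passenger subunit borealin, fell by 0.89, and SGO2 and SGO1, which shield centromeric cohesin, fell by 0.80 and 0.75. SGO2 lost its call without siCtrl replicate 1 (adjusted p = 0.0859). SGO1-AS1 overlaps SGO1.

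Of the 8 cohesin genes, 2 fell, a share near the 23.2% of all tested features that fell. The median log2 fold change of the 8 genes was -0.09. ESCO2, the acetyltransferase that locks cohesin onto replicated chromatids in S phase, fell the most, from 501 and 485 with siCtrl to 233 and 141 after siSFPQ-2 and 270.0 and 284 after siSFPQ-3. All siSFPQ values were far below siCtrl (log2 fold change -1.14, SE 0.17, adjusted p = 0.000437), in a span that CCDC25 and PBK overlap. SMC1A, a core ring subunit, stood at 782 and 732 with siCtrl, 536 and 527 after siSFPQ-2, and 593 and 570.2 after siSFPQ-3. The groups did not overlap, but the fall was shallow (log2 fold change -0.44, SE 0.09, adjusted p = 0.00297) and lost its call without siCtrl replicate 1 (0.0544).

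The other ring subunits SMC3 (0.11) and RAD21 (-0.08), the STAG subunits STAG1 (-0.15) and STAG2 (-0.11), and the regulators PDS5A (0.08) and PDS5B (-0.01) were not called, and in all 6 the siSFPQ values overlapped siCtrl. Their 95% intervals lay between -0.36 (STAG1) and 0.35 (SMC3), so that changes as large as that of ESCO2 lay outside them. RAD21-AS1 overlaps RAD21 and STAG2-AS1 overlaps STAG2. Whether the cohesin group differs from the other groups was not tested, since the groups were formed with results of these data known.

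The siRNAs are next set side by side; both comparisons share the siCtrl libraries. With siSFPQ-2, 35 members fell and 0 rose (17.9% and 21.2% of tested features), with a median of -1.02. With siSFPQ-3, 23 fell and 1 rose (20.4% and 23% of tested features), with a median of -0.49. The member that rose with siSFPQ-3 was CENPW. STAG1 was among those that fell with siSFPQ-2 (-0.31, adjusted p = 0.0408) and stood at 0.00 with siSFPQ-3. Its call was lost without any one of the siCtrl or siSFPQ-2 libraries (adjusted p 0.0698 to 0.229), with libraries scaled to the same total (0.0555) or by TMM (0.0505), and in edgeR (0.0602). By role, siSFPQ-2 lowered 5 of 5 passenger and shugoshin genes and siSFPQ-3 lowered 2 of them, and in the same order the counts were 8 and 5 of 10 corona, Ska and checkpoint genes, 7 and 5 of 10 KMN genes, 9 and 8 of 13 CCAN genes, 3 and 1 of 4 CENP-A genes, and 3 and 2 of 8 cohesin genes. Fewer members were called with siSFPQ-3 without either siCtrl library or without siSFPQ-3 replicate 2, in fits with 1 library in a group. Some calls were lost as the change shrank, others although it did not. Without siCtrl replicate 1, CENPI lost its call at -0.48 (-0.67 with all libraries) and CENPH at -0.63 (-0.59). Without siCtrl replicate 2, CENPW lost its call at 0.77 (0.82) and BUB1 at -0.70 (-0.58). Why calls were lost was not tested.

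Tested directly, 0 members differed between siSFPQ-3 and siSFPQ-2 at an adjusted p under 0.05 in limma, where 0.023% of tested features were lower and 0.0781% higher with siSFPQ-3. At an unadjusted p under 0.05, 27 members were higher with siSFPQ-3 and 0 lower, against 7.57% and 4.91% of tested features. edgeR called 1 member higher (0.184% of tested features) and DESeq2 4 (1.08%). With the replicate number as a block, limma called 17 members higher, and the share of all tested features was not drawn up for this setting. Levels were higher with siSFPQ-3 in 46 of 50 members (50.4% of tested features), with a median difference of 0.38. In 33 members both siSFPQ-2 libraries lay below both siSFPQ-3 libraries, which held for 22% of tested features. The smallest adjusted p was that of BUB1, at 0.0583 for a difference of 1.07 on the log2 scale (95% interval 0.69 to 1.44). BIRC5 (1.13, 0.59 to 1.67), ZWINT (0.92, 0.39 to 1.45), CENPU (0.90, 0.44 to 1.36) and BUB1B (0.88, 0.46 to 1.31) had large differences with adjusted p of 0.104, 0.159, 0.12 and 0.109. MAD1L1 (-0.07, -0.40 to 0.25) and DSN1 (0.04, -0.32 to 0.39) had small ones. Without siSFPQ-2 replicate 1, which leaves siSFPQ-2 with 1 library assumed to vary like the other groups, the difference of BUB1 was 1.29.

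**Figure D2:**
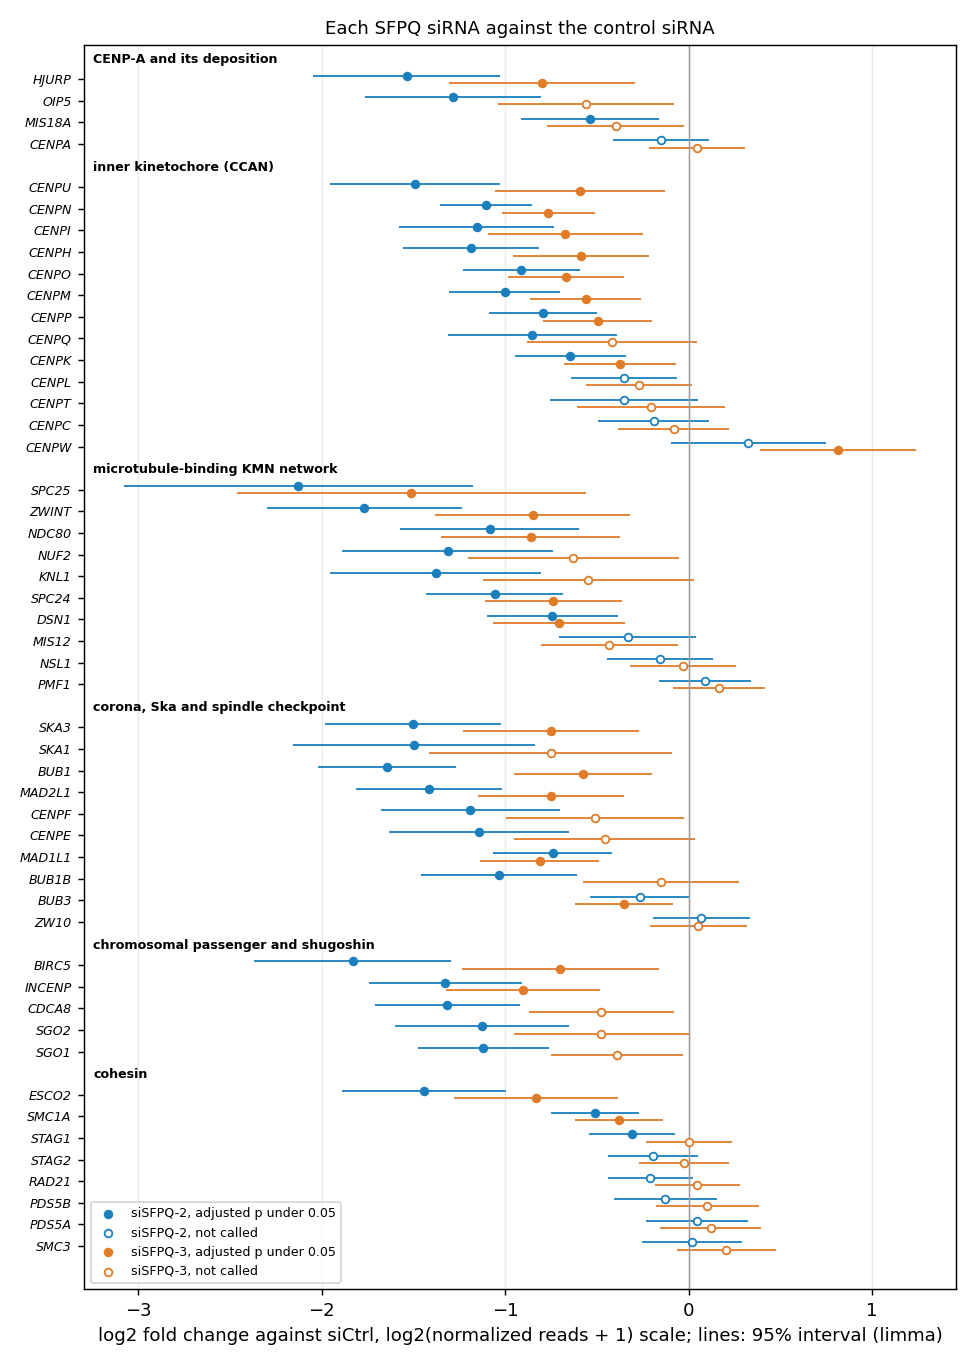
Log2 fold change of each member with siSFPQ-2 and with siSFPQ-3 against siCtrl, on the log2(normalized reads + 1) scale, with 95% intervals from limma; filled points have an adjusted p under 0.05. The siSFPQ-2 points lie left of the siSFPQ-3 points for 46 of 50 members, with overlapping intervals for most, and both lie near 0 for CENPA, ZW10, PMF1 and most cohesin genes.

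The deposited profiles give signal in 500 bins along each gene, of which the first and last 100 were taken as flanks. All 50 members had profiles, 27 of them in the authors' class named down and 23 in the class named ns. The class named down holds 4.86% of all 51991 profiled genes. Only 20515 profiled genes were also tested in the normalized reads, as all members were, so this share comes from an unlike set of genes. Among members called lower in the normalized reads, the median body signal, past the first 30 of the 300 gene bins, was 54.7% and 39.6% of the siCtrl mean after siSFPQ-2 and 77.8% and 64.1% after siSFPQ-3. These first 30 bins stood at 50.8% and 34.5% after siSFPQ-2 and 61.9% and 55.5% after siSFPQ-3. Signal was lower both near the start and along the gene. In the members not called lower, the body signal after siSFPQ was 98.0% to 113%, while the first 30 bins stood at 90.3%, 84.9%, 82.6% and 80.4% in the siSFPQ libraries and at 96.9% and 103% with siCtrl. Near the start, signal after siSFPQ thus lay below siCtrl in these members too. Lower signal near the start relative to the body is not particular to the members. Over all genes also tested in the normalized reads, the median log2 change of this ratio was -0.21.

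In the peak at the start, the mean signal of members called lower, relative to each gene's mean over its gene bins in siCtrl, was 9.09 and 7.08 with siCtrl in bins 91 to 100. It was 4.16 and 3.34 after siSFPQ-2 and 5.01 and 5.99 after siSFPQ-3. In bins 251 to 260, in the middle of the gene, it was 0.835 and 0.719 with siCtrl, 0.432 and 0.311 after siSFPQ-2 and 0.534 and 0.520 after siSFPQ-3. In the 14 other members, bins 91 to 100 stood at 8.89 and 7.84 with siCtrl, 7.27 and 8.55 after siSFPQ-2, and 6.55 and 7.11 after siSFPQ-3, so that 3 of 4 siSFPQ libraries lay below both siCtrl libraries. In the first 10 gene bins, all 4 did, at 6.18, 5.93, 5.59 and 6.26 against 7.51 and 7.55. The profiles come from the same libraries as the normalized reads and are no independent evidence, and the members were split here by the normalized reads.

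**Figure D3:**
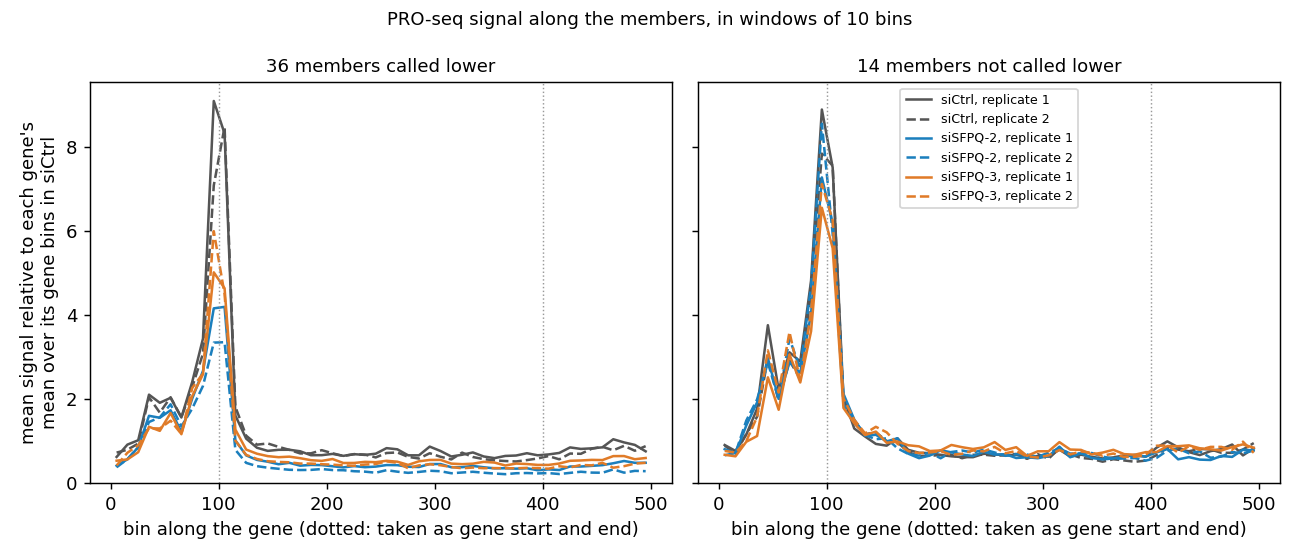
Mean PRO-seq signal along the 36 members called lower (left) and the 14 others (right) in windows of 10 bins, relative to each gene's mean over its gene bins in siCtrl, by library; solid lines are replicate 1 and dashed lines replicate 2. On the left the siSFPQ lines lie below both siCtrl lines at the peak and along the gene. On the right the siSFPQ lines lie below both siCtrl lines at the gene start (5.59 to 6.26 against 7.51 and 7.55 in the first 10 gene bins). Along the gene the siSFPQ-2 lines lie nearer siCtrl, and siSFPQ-3 replicate 1 lies above both siCtrl lines in many windows. In bins 251 to 260, siSFPQ-3 stood at 0.978 and 0.863 and siCtrl at 0.683 and 0.653.

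Tests of the profiles called few members. In the body signal, fitted over 51972 genes, CENPM, CENPN, SGO1 and ZWINT fell and CENPW and SMC3 rose (limma, adjusted p under 0.05), where 2.26% of genes fell and 7.39% rose. The median over members was -0.71. Over the 20515 genes also tested in the normalized reads, a choice added after seeing the data, 25 members fell and 1 rose, against 14% and 25.8% of genes. The 51972-gene counts moved when single libraries were left out, most of them to fewer calls. Such a fit has 1 library in a group, so a lost call need not mean a smaller change. The causes were not tested.

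The ratio of the first 30 gene bins to the rest of the body, which a scale factor per library cannot change, was called in 0 members in either direction (0.856% of genes lower and 0.406% higher). At an unadjusted p under 0.05, 9 members were lower and 0 higher, against 11.9% and 4.52% of genes. The member median of this ratio was -0.25 on the log2 scale, close to the median of -0.21 over the genes also tested in the normalized reads. Fitted over those genes alone, 1 member was lower (4.97% of genes). The ratio of the flank past the gene end to the body was likewise called in 0 members (0.115% and 0.125% of genes), with 7 lower and 1 higher at an unadjusted p under 0.05 (6.95% and 4.64% of genes). Its median was -0.12 over members and -0.10 over the genes also tested in the normalized reads. CENPW combined a higher body signal (1.08) with a lower ratio of the first 30 bins to the body (-0.99, not called).

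The members' fold changes are next set against gene length. RefSeq spans were divided at 25 and 100 kb, a division chosen after seeing the data. These are spans of whole genes, and the transcript counted for a feature may be shorter. Of 16 members under 25 kb, 13 fell, with a median of -0.90 (28.1% of the 8179 tested features of that class fell). Of 26 members from 25 to 100 kb, 20 fell, with a median of -0.80 (19.4% of 5477). Of 8 members over 100 kb, 3 fell and CENPW rose, with a median of -0.13 (12.7% of 2598 fell and 49.8% rose). The 3 long members that fell were MAD1L1, CENPP and MIS18A, and 4 of the 8 were the cohesin genes STAG1, STAG2, PDS5A and PDS5B, so that span and role cannot be told apart in these members. The median over all tested features also moved with span, from -0.13 under 25 kb to 0.08 and 0.30 in the longer classes.

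**Figure D4:**
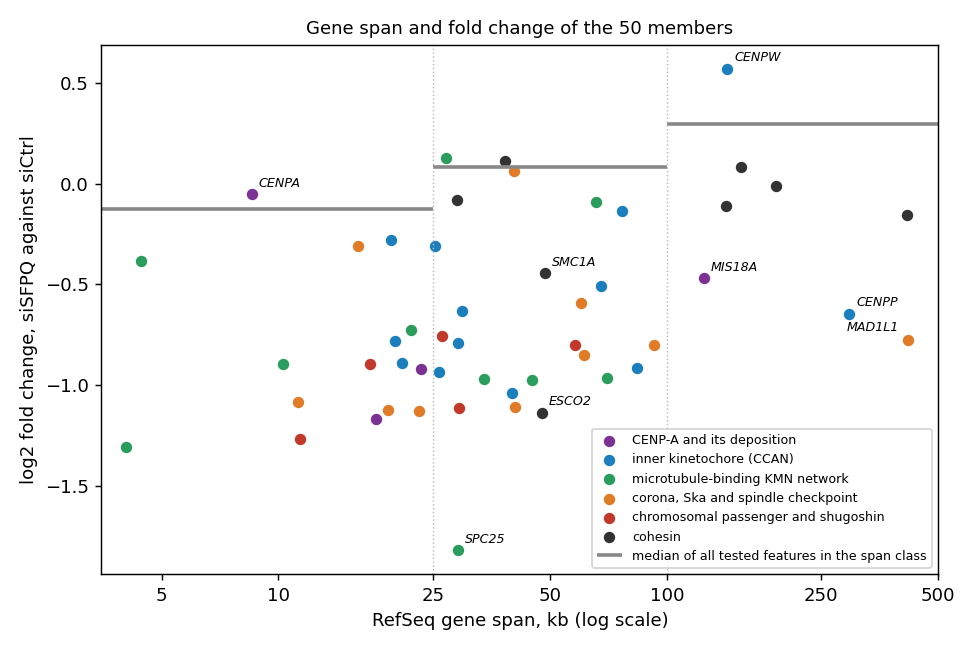
Log2 fold change, siSFPQ against siCtrl, by RefSeq gene span on a log axis for the 50 members, coloured by role; grey lines are the medians of all tested features in the span classes (-0.13, 0.08 and 0.30). Most members lie below the grey line of their class, and 4 of the 8 members over 100 kb are cohesin genes.

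Other genes of the same structures are given from 2 lists drawn up by function. Of 28 other kinetochore and checkpoint genes, 27 were tested, 16 fell and 2 rose, with a median of -0.51. Of all tested features, 23.2% fell and 24.8% rose. SKA2, the remaining Ska subunit, fell by 0.99 (limma, adjusted p = 7.6e-05), with values of 1706 and 1586 with siCtrl, 915 and 725 after siSFPQ-2, and 906 and 777 after siSFPQ-3. PLK1, a mitotic kinase, fell by 0.79 (adjusted p = 0.00033), with values of 728 and 730.0 with siCtrl, 407 and 328 after siSFPQ-2, and 515 and 459.8 after siSFPQ-3. CLASP1 and CLASP2, proteins that stabilize microtubule plus ends, rose by 0.97 (adjusted p = 3.79e-05) and 0.55 (0.00164). No siSFPQ library overlapped siCtrl in these 4 genes. All siSFPQ libraries lay below both siCtrl libraries in 31% of tested features and above both in 30.3%.

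Of 26 other cohesin, condensin and separation genes, 16 fell and 5 rose, with a median of -0.51. Of all tested features, 23.2% fell and 24.8% rose. In 31% of tested features all siSFPQ libraries lay below both siCtrl libraries, and in 30.3% above both. CHTF18, part of the clamp loader that helps set up cohesion, fell by 1.17 (limma, adjusted p = 9.11e-05), with values of 364 and 373 with siCtrl, 153 and 119.6 after siSFPQ-2, and 187 and 208 after siSFPQ-3. NCAPD2, a condensin subunit, fell by 0.97 (0.000207), with values of 694 and 613 with siCtrl, 316 and 246 after siSFPQ-2, and 430.2 and 366 after siSFPQ-3. HDAC8, which removes acetyl groups from SMC3, rose by 0.52 (0.0027), with values of 410.4 and 368 with siCtrl, 498 and 555 after siSFPQ-2, and 625 and 560.1 after siSFPQ-3. NIPBL, the cohesin loader, rose by 0.50 (0.00406), with values of 2952 and 2439 with siCtrl, 3649 and 3535 after siSFPQ-2, and 4247 and 3758 after siSFPQ-3. The siSFPQ values of these 4 genes did not overlap the siCtrl values, and the 5 rises of this list were 0 without siCtrl replicate 2.

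The counts of called members were close between limma, edgeR and DESeq2, and lower in the authors' deposited table. On whole reads recovered from the normalized reads, edgeR called 36 members lower and 1 higher (23% and 25.4% of tested features), and DESeq2 33 lower and 1 higher (18.8% and 21.7%). The authors' deposited table gave 30 members lower and 0 higher at an adjusted p under 0.05 (16.9% and 19.9% of its features with an adjusted p), and the sign of its log2 fold change was the one found here in 50 of 50 members. BUB1, BUB1B, BUB3, CENPF, CENPL and CENPU, called lower here, were not called there. CENPW, called higher here, was not called there either.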

How the data were processed

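Nascent RNA of 6 SBC-3 libraries was analysed from the deposited tables. The submitters' processing notes name DESeq2 1.38.1, SAMtools 1.3.1, Bowtie2, cutadapt 1.14 and UMI-tools, with the builds dm6 and hg38. The order of steps, the part of a gene counted, the use of strand and the role of the fly build dm6 are not stated in the sources used here. The authors deposited signal per feature as normalized reads, whose values were whole multiples of 1 read (100% at a tolerance of 0.1), so whole reads were recovered. A value of 1 read was worth 0.797 to 1.11 normalized reads. The authors' deposited table also holds a log2 fold change and an adjusted p-value. The profiles are signal in 500 bins, deposited with scaling and bin size not given.

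Features with at least 10 normalized reads in at least 2 libraries (21773 of 25827) entered 1 limma fit (version 3.58.1, R 4.3.3, trend option) of 3 groups on the log2(value + 1) scale, at an adjusted p of 0.05. The pseudocount understates changes of low genes. Profiles were tested the same way with a pseudocount of 0.0541. edgeR 4.0.16 and DESeq2 1.42.0 were run on the recovered reads. Code was tested on simulated data. Replicates differed by more than sampling noise (chi-square per degree of freedom of 10.7, 11.4 and 23.6 in siCtrl, siSFPQ-2 and siSFPQ-3), so none was taken as a repeat.

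The members, roles and lists were chosen with earlier results of these data known. Library values were given for the 2 members of each role with the smallest p and for members called between the siRNAs, of which there were 0. Of each further list up to 2 genes per direction were named. CENPA, CENPW, SPC25, MIS12 and MAD1L1, and the CENPA promoter, were added after their values were seen. One promoter per gene, the first listed, was used. CENPS was not analysed here.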

Additional observations from a re-analysis of the deposited data

How the results depend on the processing

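The count of members that fell in siSFPQ against siCtrl ranged from 23 to 37 and that of members that rose from 0 to 1 when each library was left out in turn, and over the other settings the first lay between 33 and 37. For siSFPQ-2 against siCtrl, it ranged from 29 to 36 without single libraries. For siSFPQ-3 against siCtrl, the fallen ranged from 5 to 29 and the risen from 0 to 1. Between the siRNAs, those higher with siSFPQ-3 ranged from 0 to 15 without single libraries, were 1 with a pseudocount of 5 and in edgeR, and 4 in DESeq2. By role, leaving out single libraries gave 1 to 3 fallen CENP-A genes, 0 to 1 risen CCAN genes, 5 to 9 fallen corona, Ska and checkpoint genes and 1 to 2 fallen cohesin genes. It gave 0 to 5 risen genes of the other cohesin list. In the profiles, the body signal gave 0 to 10 fallen and 0 to 2 risen members without single libraries, 10 and 1 with all 300 gene bins, and 25 and 1 over the genes tested in the normalized reads, where fewer genes were fitted. That last setting gave 1 member with a lower ratio of the first 30 gene bins to the body. The causes of the other differences were not tested. Each fit without a single library has 1 library in a group, and the share of all tested features called in it was not drawn up. No member changed direction past the threshold under any setting run.

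The labels number the replicates. Over all tested features, replicate differences correlated at 0.0529 (siCtrl with siSFPQ-2), 0.0587 (siCtrl with siSFPQ-3) and 0.382 (siSFPQ-2 with siSFPQ-3). Replicate 2 lay below replicate 1 in 42 members with siCtrl, 42 with siSFPQ-2 and 35 with siSFPQ-3. The numbers were not taken as pairs in the main fit, so a replicate difference shared by the siRNA groups was not removed there. With the replicate block, 35 members fell with siSFPQ-3, 17 were higher with siSFPQ-3 than with siSFPQ-2, and MIS12 was called (limma, adjusted p = 0.0127). The shares of all tested features were not drawn up for the block, so these counts cannot be set against them. For siSFPQ-3 against siCtrl, the range of fallen members given before covers fits without single libraries. The replicate block and a fit of only the 2 groups lay above that range. Depth limits the low members most, SPC25 above all, at 22.1 normalized reads in its lowest library.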
